A study of Bos taurus with 2 samples.

Results

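The hypoblast regulators described here are 7 genes, HNF4A, PDGFRA, GATA4, SOX17, SOX7, FOXA2 and RSPO3. They were chosen by name and found by symbol in the deposited feature lists, where all 7 of 7 were present among 35643 features. They were followed in single nuclei of 2 bovine (Bos taurus) sources, each with wild-type genotype per the labels. One library held nuclei of 3L blastoids, blastocyst-like structures grown in microwells from 8 bEPSC, 8 bXEN (bXENML in the protocol) and 16 bTSC cells each, in a medium with LIF, activin A and Chir99021. The other held nuclei of day 8 blastocysts, the embryo stage with an outer trophectoderm and an inner cell mass. The cell lines had been depleted of feeder cells, and nuclei came from frozen material in both cases. The age of the blastoids and the number of structures pooled per library are not given in the sources used here. Each group had 1 library, so no test across replicates was possible, and every difference below compares these libraries.

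The hypoblast, or primitive endoderm, is the inner cell mass lineage that lines the blastocoel and goes on to form the yolk sac endoderm. In the mouse, GATA6 and the receptor PDGFRA mark the lineage early, and SOX17, GATA4 and SOX7 follow in that sequence. HNF4A and FOXA2 are transcription factors best known from visceral endoderm and liver, and RSPO3 is a secreted amplifier of WNT signalling. The bXEN line in the blastoids is an extraembryonic endoderm line, the in vitro counterpart of this lineage.

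Values are counts of unique molecular identifiers (UMIs), each a captured RNA molecule, given as UMIs per 1000000 UMIs of the same sum (CPM). They were not divided by gene length, so an order among genes is an order of capture, not of transcript abundance. All intervals are exact 95% intervals that cover counting error only. Depth differed between the libraries. Of 1914 kept blastoid barcodes 286 reached 4000 UMIs (median 13070), and of 827 kept blastocyst barcodes 687 did (median 8591), so levels were compared over these nuclei, and detection after thinning each to 4000 UMIs. The other 1628 blastoid and 140 blastocyst barcodes were shallower, and 1 cell barcode sequence was shared by both libraries. Clusters made without the 7 genes gave 4 groups in the blastocyst: 231 trophectoderm-like nuclei, 74 epiblast-like nuclei, 122 mostly shallow ones and 400 with the highest GATA6 level, called the GATA6-high cluster. The GATA6-high cluster carried 6 hypoblast markers (among them GATA6, FN1, COL4A1, COL4A2 and CDH2) against 3 epiblast ones, and its 10 leading genes included GATA4, which was kept out of the clustering, but also the endothelial marker VWF, and it was left without a cell type name. With finer clustering 158 of the nuclei formed a hypoblast-like cluster. The blastoid gave a ribosomal-rich cluster of 1620 barcodes (median 1926 UMIs), a trophectoderm-like cluster of 154 and an unnamed cluster of 140 nuclei led by LMX1A, LDB2, NLGN1 and DCC, called blastoid cluster 3.

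The first comparison asks whether the blastoid nuclei carried the 7 genes at the level of the embryo. At like depth, each of the 5 genes that reached 10 UMIs over both libraries was at least 2-fold lower in the blastoid library, and SOX7 and FOXA2 were near the limit of detection in both. Of all 18415 features that reached this minimum, 15.3% were at least 2-fold lower in the blastoid and 21.9% at least 2-fold higher. HNF4A, a nuclear receptor of endoderm and liver, had 2289 UMIs (349 CPM, 335 to 363) in the blastocyst and 74 UMIs (17.2 CPM, 13.5 to 21.6) in the blastoid, 20.3-fold lower (16.1 to 25.9). PDGFRA, the receptor tyrosine kinase of the early hypoblast, had 1373 UMIs (209 CPM, 198 to 221) against 26 UMIs (6.05 CPM, 3.95 to 8.86), 34.6-fold lower (23.5 to 53.2). These were the widest gaps of the set, and PDGFRA and HNF4A had overlapping intervals for the fold.

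RSPO3, the R-spondin that binds LGR receptors and stabilises the WNT receptor complex, had 716 UMIs (109 CPM, 101 to 117) in the blastocyst and 59 (13.7 CPM, 10.4 to 17.7) in the blastoid, 7.95-fold lower (6.09 to 10.6). GATA4, a zinc finger factor of the hypoblast and later heart and gut, had 128 UMIs (19.5 CPM, 16.3 to 23.2) against 36 (8.37 CPM, 5.86 to 11.6), 2.33-fold lower (1.60 to 3.47). SOX17, an HMG box factor of endoderm, had 40 UMIs (6.10 CPM, 4.35 to 8.30) against 8 (1.86 CPM, 0.803 to 3.67), 3.28-fold lower (1.51 to 8.10). For GATA4 and SOX17 the gap was thus narrower than for HNF4A and PDGFRA, with fold intervals that did not overlap those of the other pair. SOX7, the close relative of SOX17, and FOXA2, a forkhead factor of visceral and definitive endoderm, each had 3 UMIs in the blastocyst and 2 in the blastoid, so no fold is given and no difference was detectable at this depth.

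**Figure D1:**
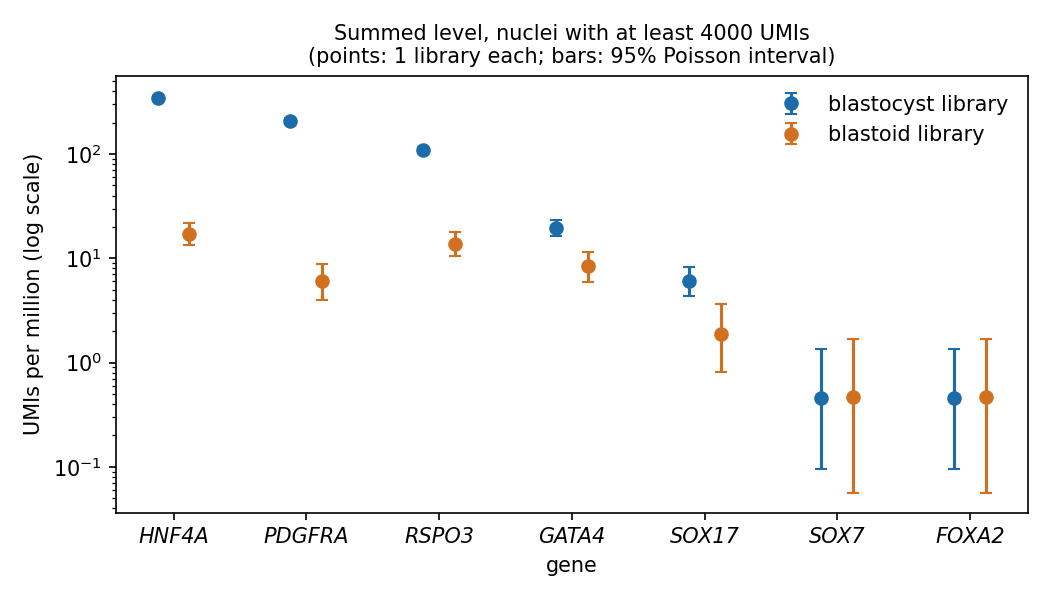
Summed level of the 7 genes (CPM, log axis) in blastocyst (blue) and blastoid (orange) nuclei with at least 4000 UMIs, 1 library each, with exact Poisson 95% intervals as bars. HNF4A, PDGFRA and RSPO3 lie far apart between the libraries, GATA4 and SOX17 less so, and the SOX7 and FOXA2 bars overlap.

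The order of capture also differed. In the blastocyst HNF4A came first, then PDGFRA, RSPO3, GATA4 and SOX17, with no overlap of intervals between neighbours. In the blastoid the order was HNF4A, RSPO3, GATA4, PDGFRA and SOX17, and the intervals of HNF4A and RSPO3, of RSPO3 and GATA4, and of GATA4 and PDGFRA overlapped. That order turned without the 2 nuclei with most HNF4A, left out after seeing the data, to RSPO3 (13.8 CPM), PDGFRA (6.09 CPM), HNF4A (5.85 CPM), GATA4 (4.45 CPM) and SOX17 (1.87 CPM). Barcodes under 4000 UMIs added few UMIs of these genes in the blastoid: 3 HNF4A, 10 PDGFRA, 6 GATA4, 14 SOX17 and 26 RSPO3 UMIs in 1628 barcodes. In the 140 shallow blastocyst barcodes the same genes had 69, 36, 3, 2 and 29 UMIs. Over all kept barcodes HNF4A was 33.4-fold lower in the blastoid (26.7 to 42.5), outside its interval at like depth. PDGFRA was 42.7-fold (30.7 to 61.3), RSPO3 9.57-fold (7.64 to 12.1) and GATA4 3.41-fold (2.39 to 4.94) lower. SOX17 stood apart here, with more UMIs in the shallow blastoid barcodes (14, in 14 barcodes) than in the deep ones (8). Over all kept barcodes SOX17 was accordingly 2.08-fold lower in the blastoid (1.22 to 3.67), and with the barcodes of high doublet score kept it lay just short of 2-fold, leaving 4 of the 5 genes past that limit.

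Most of the HNF4A and GATA4 of the blastoid library came from a few nuclei. Of 74 deep HNF4A UMIs, 49 lay in 2 nuclei with 26 and 23 UMIs, and the remaining 25 in 7 nuclei with 1 to 7 each. In the blastocyst the pair of nuclei with most HNF4A held 2.62% of its UMIs, and 427 nuclei had at least 1. Without the 2 blastoid nuclei HNF4A was at 5.85 CPM, 59.6-fold lower than in the blastocyst, and GATA4 at 19 UMIs was 4.38-fold lower. GATA4 was spread over 10 blastoid nuclei, the highest with 12, 5 and 5 UMIs. RSPO3 was found in 24 deep blastoid nuclei, of which 3 had 13, 9 and 8 UMIs and 15 had 1. PDGFRA was spread thinly, with 15 of 20 nuclei at 1 UMI and a highest count of 3. No blastoid nucleus had more than 3 PDGFRA UMIs, whereas the median blastocyst nucleus with PDGFRA had 3 and the highest 16.

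The second comparison asks in what share of nuclei each gene was detected at equal depth. After thinning, HNF4A was found in 361 of 687 blastocyst nuclei (52.5%, 48.7 to 56.3) and 5 of 286 blastoid nuclei (1.75%, 0.570 to 4.03). PDGFRA was found in 281 (40.9%, 37.2 to 44.7) and 9 (3.15%, 1.45 to 5.89). RSPO3 was found in 163 (23.7%, 20.6 to 27.1) and 10 (3.50%, 1.69 to 6.34). These 3 genes were thus found in a large minority or a majority of embryo nuclei and in few blastoid nuclei.

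GATA4 was detected in 42 blastocyst nuclei (6.11%, 4.44 to 8.17) and 5 blastoid nuclei (1.75%, 0.570 to 4.03). SOX17 was detected in 20 (2.91%, 1.79 to 4.46) and 1 (0.350%, 0.00885 to 1.93). SOX7 was found in 2 and 0 nuclei, a 0 that allows a share of up to 1.05%, and FOXA2 in 1 and 2. Without thinning SOX7 was found in 3 and 2 nuclei and FOXA2 in 3 and 2. Also without thinning the blastocyst shares were 62.2% for HNF4A, 53.4% for PDGFRA, 34.1% for RSPO3, 12.7% for GATA4 and 4.66% for SOX17, and the blastoid shares 3.15%, 6.99%, 8.39%, 3.50% and 2.45%. For comparison, the trophectoderm-like nuclei of the blastocyst (median 9026 UMIs among deep ones) had thinned shares of 1.36% for HNF4A, 2.27% for PDGFRA, 7.27% for RSPO3, 0.455% for GATA4 and 0 of 220 for SOX17, which allows up to 1.36%. These come from another library than the blastoid nuclei, so they are no measure of free RNA in the blastoid. In the trophectoderm-like nuclei of the blastoid itself (147 deep, median 15091 UMIs) the thinned shares were 1.36% for HNF4A and RSPO3, 0.680% for GATA4 and SOX17 and 0 of 147 for PDGFRA, which allows up to 2.04%. The 2 nuclei with 26 and 23 HNF4A UMIs had 14665 and 14393 UMIs in all, while the ribosomal-rich cluster of the same library had HNF4A at 0.948 CPM.

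Within the blastocyst the 5 captured genes had different distributions over the clusters. The GATA6-high cluster had at least 2-fold more than the trophectoderm-like cluster for all 5 genes with at least 10 UMIs, where 18.8% of 15425 features did. HNF4A was at 552 CPM (527 to 578) in the GATA6-high cluster, 543 CPM (493 to 598) in the epiblast-like one, 157 CPM (123 to 199) in the shallow cluster 3 and 10.9 CPM (7.06 to 16.1) in the trophectoderm-like one. HNF4A therefore did not separate the GATA6-high from the epiblast-like nuclei, with a ratio of 1.02 (0.913 to 1.13), but stood 50.6-fold (34.1 to 78.3) above the trophectoderm-like ones, and 113-fold without the 1 nucleus of that cluster richest in HNF4A. PDGFRA was at 358, 162, 135 and 13.1 CPM in the same clusters, and its level in the GATA6-high cluster was 2.21-fold (1.84 to 2.68) that of the epiblast-like one. With coarser clustering (resolution 0.3) PDGFRA in the epiblast-like cluster was at 54.2 CPM and HNF4A at 415 CPM (555 CPM in the GATA6-high cluster), so the gaps in both genes depend on how that cluster is drawn. GATA4 was at 34.8 CPM (28.7 to 41.7), 14.1 CPM (7.05 to 25.3), 2.25 CPM (1 UMI) and 1.31 CPM (3 UMIs).

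The ratio of GATA4 between the GATA6-high and epiblast-like clusters was 2.46 (1.33 to 5.07). SOX17 had 37 UMIs in the GATA6-high cluster (11.1 CPM, 7.81 to 15.3), 4 in cluster 3, 1 in the epiblast-like cluster and 0 in the trophectoderm-like one, where it was at least 8.47-fold lower, counting 3 UMIs as the floor over that group. RSPO3 was at 160 CPM (147 to 175) in the GATA6-high cluster, 114 CPM (91.8 to 141) in the epiblast-like one, 69.7 CPM in cluster 3 and 39.3 CPM (31.6 to 48.3) in the trophectoderm-like one. Its ratio to the trophectoderm-like cluster, 4.08 (3.26 to 5.16), was the lowest of the 5 genes. To the epiblast-like cluster its ratio was 1.40 (1.12 to 1.78), above the 1.02 of HNF4A. Of the 4 SOX7 UMIs in kept barcodes 3 lay in the GATA6-high cluster and 1 in cluster 3, and the 3 FOXA2 UMIs all lay in the GATA6-high cluster. In all, 3 of 5 genes were at least 2-fold higher in the GATA6-high than in the epiblast-like cluster, where 4.77% of 14413 features were. All 4 with at least 10 UMIs were at least 2-fold higher in the epiblast-like than in the trophectoderm-like cluster, where 18.1% of 13610 features were. These clusters were drawn from the same nuclei, so the counts describe them and test nothing.

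The epiblast-like cluster was set apart by NANOG (113 CPM against 21.9 CPM in the GATA6-high cluster), the pluripotency factor of the epiblast, but not by SOX2 (39.8 CPM against 36.0 CPM). Hypoblast genes were found in it too, with GATA6 at 618 CPM and in 71.2% of thinned nuclei, FN1 at 2214 CPM and in 94.5%, and NID1 at 329 CPM. What part these have in its HNF4A level was not tested. Among the 55 thinned nuclei with a NANOG UMI, HNF4A was found in 78.2% (65.0 to 88.2), PDGFRA in 38.2% (25.4 to 52.3), RSPO3 in 23.6%, GATA4 in 7.27% and SOX17 in 0 of 55. Among nuclei without NANOG the shares were 50.3%, 41.1%, 23.7%, 6.01% and 3.16%. Over all clusters HNF4A was thus more frequent with NANOG than without it, but the nuclei without NANOG include the trophectoderm-like ones, with HNF4A in 1.36%. Inside the GATA6-high cluster no difference was seen. There NANOG was found in 6.99% (4.32 to 10.6) of nuclei with HNF4A and 5.13% (1.41 to 12.6) of those without. Among 198 nuclei with GATA2, a trophectoderm factor, HNF4A was found in 5.56%, PDGFRA in 4.55%, RSPO3 in 7.58% and GATA4 in 0.505%.

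The few UMIs of the trophectoderm-like cluster were unevenly held. One nucleus with 34356 UMIs had 14 of its 25 HNF4A UMIs, 14 of its 30 PDGFRA UMIs, 8 RSPO3 and 1 GATA4, beside 53 GATA6, 96 FN1 and 5 GATA2 UMIs. Its depth was far above the median of 9026, and it carried genes of both classes. Without it, an alternative chosen after seeing the data, HNF4A in the cluster was at 4.87 CPM (2.43 to 8.72) and PDGFRA at 7.09 CPM (4.05 to 11.5), and the GATA6-high cluster stood 113-fold (63.1 to 227) and 50.5-fold (30.9 to 88.6) above it. Of the other 11 nuclei with HNF4A in that cluster, each had 1 UMI. RSPO3 differed from this: 29 trophectoderm-like nuclei had it, 27 of them with GATA2 and 4 with HNF4A, and the highest held 18 and 12 UMIs with no HNF4A.

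**Figure D2:**
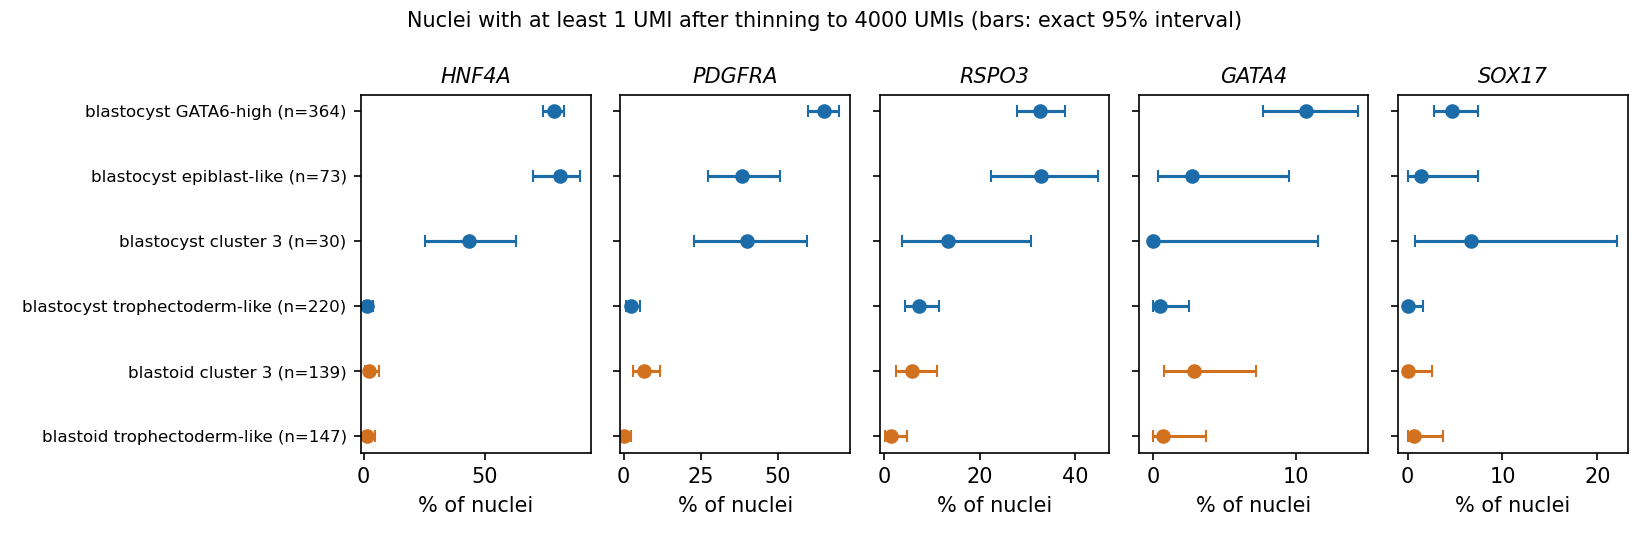
Share of nuclei with at least 1 UMI after thinning to 4000 UMIs (percent, each panel on its own axis) for 5 genes in blastocyst (blue) and blastoid (orange) clusters, with exact 95% intervals; the ribosomal-rich blastoid cluster had no nucleus of that depth. HNF4A is as frequent in the epiblast-like (80.8%) as in the GATA6-high cluster (78.6%), PDGFRA is less so (38.4% against 64.8%), and all blastoid shares lie under 7%.

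In the blastoid, cluster 3 held 59 of the 77 HNF4A UMIs of kept barcodes, 24 of 36 for PDGFRA, 25 of 42 for GATA4 and 53 of 85 for RSPO3. Its levels were 31.1 CPM for HNF4A (23.7 to 40.1), 12.7 CPM for PDGFRA, 13.2 CPM for GATA4 and 27.9 CPM for RSPO3. These sums rested on few nuclei, since all 59 HNF4A and all 25 GATA4 UMIs lay in 5 nuclei each. Without the 2 nuclei with most HNF4A, left out after seeing the data, HNF4A was at 5.36 CPM (2.57 to 9.85) and GATA4 at 4.28 CPM (1.85 to 8.44), close to the 6.20 and 4.55 CPM of the trophectoderm-like blastoid cluster, while PDGFRA was at 12.9 CPM and RSPO3 at 28.4 CPM. All 4 levels lay below those of the GATA6-high cluster of the embryo. SOX17 went the other way, with 1 UMI in cluster 3, 7 in the trophectoderm-like and 14 in the ribosomal-rich cluster. Both deep SOX7 UMIs lay in trophectoderm-like nuclei. The trophectoderm-like cluster had 15 HNF4A UMIs in 4 nuclei and 11 GATA4 UMIs in 5. The ribosomal-rich cluster, with 84.6% of the barcodes, had 3 HNF4A UMIs (interval of its level 0.195 to 2.77 CPM).

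The third comparison asks in which order the genes were found together in a nucleus. Of 687 thinned blastocyst nuclei 239 had none of the 7 genes, 158 had 1, 184 had 2, 81 had 3, 24 had 4 and 1 had 5. At least 2 were found in 42.2% (38.5 to 46.0), against 1.05% (0.217 to 3.04) of blastoid nuclei, where 259 had none, 24 had 1, 1 had 2 and 2 had 3. By cluster the share with at least 2 was 67.0% in the GATA6-high, 46.6% in the epiblast-like and 0.909% in the trophectoderm-like cluster. The most frequent combination was HNF4A with PDGFRA in 126 nuclei, followed by HNF4A alone in 92, HNF4A with PDGFRA and RSPO3 in 61, PDGFRA alone in 38, HNF4A with RSPO3 in 33 and RSPO3 alone in 24. Exactly HNF4A, PDGFRA, RSPO3 and GATA4 were found in 13 nuclei, exactly HNF4A, PDGFRA, RSPO3 and SOX17 in 10, and all 5 of these genes in 1.

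In the order HNF4A, PDGFRA, RSPO3, GATA4, SOX17, set by the shares themselves, 293 of the 448 nuclei with any of the genes (65.4%) held an unbroken run from the top, meaning that no rarer gene was found without each more frequent one. Among nuclei with exactly 1 gene, 92 of 158 had HNF4A. Among those with 2, 126 of 184 had HNF4A and PDGFRA, and among those with 3, 61 of 81 had RSPO3 as well. With 4 genes the run held in 13 of 24, since SOX17 took the place of GATA4 in 10 of the others. An order set by shares favours such runs, so the counts are a description of single time point data and give no sequence in time.

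**Figure D3:**
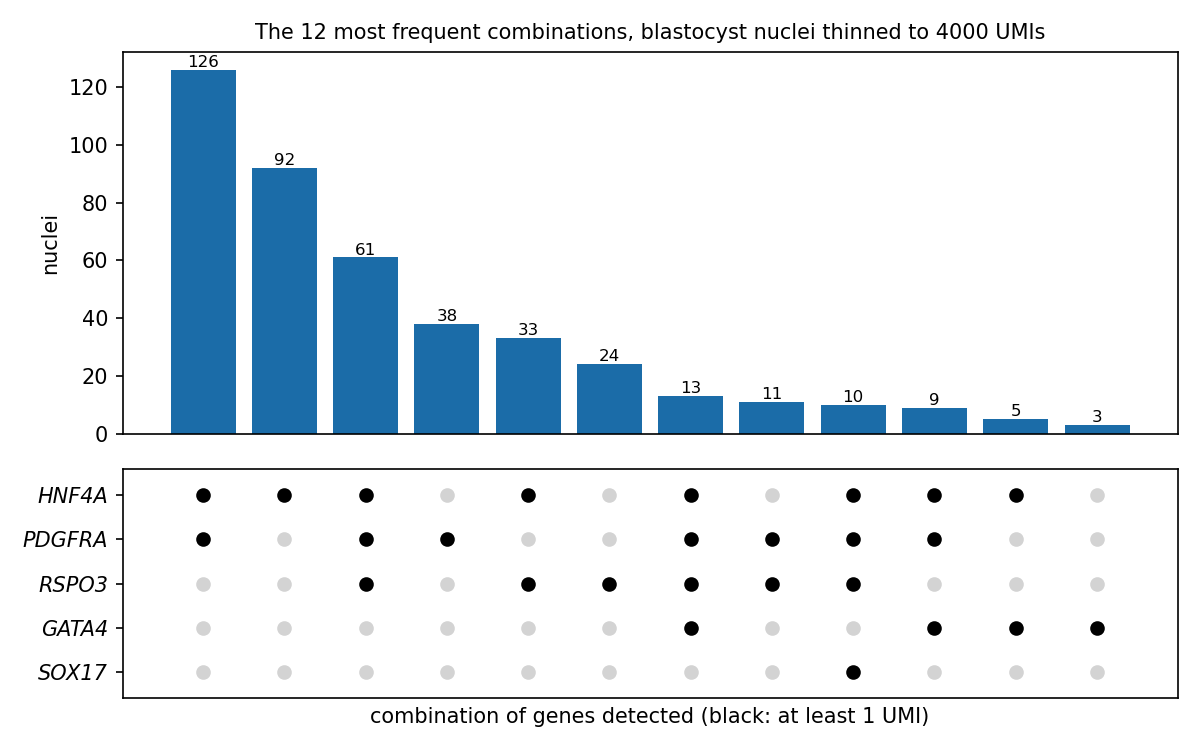
Number of blastocyst nuclei (bars, from 0) with each of the 12 most frequent combinations of the genes after thinning to 4000 UMIs; black dots below each bar mark the genes found. HNF4A with PDGFRA leads with 126 nuclei, GATA4 and SOX17 appear mostly in nuclei that also have HNF4A, and no frequent combination holds both of them.

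Pair by pair, HNF4A was found in 80.1% (74.9 to 84.6) of PDGFRA nuclei, 75.5% (68.1 to 81.8) of RSPO3 nuclei, 73.8% (58.0 to 86.1) of GATA4 nuclei and 85.0% (62.1 to 96.8) of SOX17 nuclei, against 52.5% of all. The reverse shares were lower: PDGFRA in 62.3% of HNF4A nuclei, RSPO3 in 34.1%, GATA4 in 8.59% and SOX17 in 4.71%. Joint nuclei with HNF4A and PDGFRA numbered 225, 1.52 times the product of the separate shares. Inside the GATA6-high cluster the ratio was 1.05, and PDGFRA was found in 67.8% (62.1 to 73.2) of nuclei with HNF4A against 53.8% (42.2 to 65.2) of those without. GATA4 and SOX17 nuclei more often had RSPO3. Within the GATA6-high cluster RSPO3 was found in 53.8% (37.2 to 69.9) of 39 GATA4 nuclei against 30.2% (25.2 to 35.5) of the others, and in 70.6% (44.0 to 89.7) of 17 SOX17 nuclei against 30.8% (26.0 to 36.0).

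GATA4 and SOX17 themselves were found together in 1 thinned nucleus of 20 with SOX17, where the product of shares gives 1.22. That pair depended on depth. At full depth 9 of 32 SOX17 nuclei had GATA4 (28.1%, 13.7 to 46.8), 2.22 times the product, and after thinning to 8000 UMIs the share was 28.6%. The 9 nuclei had a median of 10004 UMIs, against 9321 for all 32 with SOX17 and 8591 for all deep nuclei. Without thinning HNF4A was found in 78 of 87 GATA4 nuclei (89.7%) and 30 of 32 SOX17 nuclei (93.8%).

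The level of HNF4A in a nucleus went with some of the other genes. In the GATA6-high cluster, PDGFRA was found in 53.8% (42.2 to 65.2) of 78 thinned nuclei with no HNF4A UMI, in 62.3% of 151 with 1 to 2 and in 74.1% (65.8 to 81.2) of 135 with 3 or more. RSPO3 was found in 19.2% (11.2 to 29.7), 31.1% and 42.2% (33.8 to 51.0). The intervals of the lowest and highest class did not overlap for either gene. SOX17 was found in 2.56%, 3.31% and 7.41%, with overlapping intervals, and GATA4 in 12.8%, 9.93% and 10.4%. GATA4 detection thus showed no order by HNF4A level inside this cluster.

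Other genes of the lists, and the rest of the 5 genes, were compared between nuclei with and without each of the 5 genes in the GATA6-high cluster. Of 200 pairs in all, 13 (6.50%) had intervals that did not overlap, among them pairs of RSPO3 with HNF4A, GATA4 and SOX17. Over all features compared in the same way the share was 0.628% of 55600 pairs, with no matching for how often a gene was detected. PDGFRA nuclei more often had COL18A1 (40.3% against 19.5%) NID1 (71.6% against 54.7%) and GATA6 (94.1% against 82.0%). COL18A1 and NID1 did not stand for the basement membrane genes as a group, since LAMB1 was at 33.5% against 34.4%, COL4A1 at 77.1% against 73.4% and HSPG2 at 14.4% against 24.2%, with overlapping intervals. GATA4 nuclei less often had ESRRB, an orphan receptor of pluripotent cells (25.6%, 13.0 to 42.1, against 49.2%, 43.7 to 54.8). Other epiblast markers lay on either side in the same nuclei, with SALL4 at 48.7% against 30.2% and ZFP42 at 12.8% against 23.1%, their intervals overlapping. SOX17 nuclei more often had PRDM14, a germline and pluripotency factor (47.1%, 23.0 to 72.2, against 17.0%, 13.2 to 21.4), and had LIN28B in 0 of 17 against 24.2%. The other epiblast markers with SOX17 had overlapping intervals, among them SALL4 (23.5% against 32.6%), SOX2 (5.88% against 11.5%) and NANOG (0 of 17 against 6.92%). RSPO3 nuclei more often had the cadherin CDH2 (30.3% against 15.9%). These 13 were picked out of 200 by their intervals, with no test and no adjustment, and pairs of the 5 genes count from both sides.

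Over the 687 thinned blastocyst nuclei, the genes with the pattern most like HNF4A among 5035 were TMEM132D (Pearson r = 0.61), FN1 (0.57) and SASH1 (0.54). For PDGFRA they were FN1 (0.53), TMEM132D (0.48) and SLC4A7 (0.48), and for RSPO3 TMEM132D and NID1 (both 0.31). No gene reached an r of 0.3 for GATA4, SOX17, SOX7 or FOXA2, which had 1 to 46 thinned UMIs. The nuclei share 1 library and include the trophectoderm-like ones, and were all thinned to 1 depth. GATA4 and SOX7 lie on the same chromosome with 6 protein-coding genes between them in the RefSeq annotation of ARS-UCD2.0. At full depth 2 of the 3 blastocyst nuclei with SOX7, each with 1 SOX7 UMI, also had GATA4 (9.43 to 99.2%). The same count, 2 of 3, was found for FOXA2 nuclei. Any link to gene position was not tested.

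The blastoid nuclei with these genes were looked at singly. Of the 9 deep nuclei with HNF4A, 6 also had GATA4 (66.7%, 29.9 to 92.5) and 0 had RSPO3 or SOX17. Of the 10 with GATA4, 6 had HNF4A, 3 had PDGFRA and 1 had RSPO3. The blastocyst had 78 deep nuclei with both HNF4A and GATA4, 11.4% of 687 (9.08 to 14.0), and the blastoid 6, 2.10% of 286 (0.774 to 4.51). The 6 blastoid nuclei, 4 of them in cluster 3 and 2 in the trophectoderm-like cluster, held 91.9% of the deep HNF4A UMIs and 83.3% of the GATA4 UMIs of their library. They had 5549 to 29117 UMIs (median 14206), against a median of 9361 for the 78. The 2 placed in the trophectoderm-like cluster had 0 and 1 GATA2 UMIs and no GATA3 UMI. They had 13 and 16 hypoblast against 8 and 10 trophectoderm markers detected. The 4 placed in cluster 3 had no UMI of its leading gene LMX1A. The cluster names are therefore no cell type names for these 6 nuclei.

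These sets were chosen after the values were seen and by their HNF4A and GATA4, so the levels of those 2 genes are a description: 753 CPM against 627 CPM for HNF4A and 332 CPM against 151 CPM for GATA4. The other hypoblast genes differed in 3 ways. FN1, the fibronectin of basement membranes, was at 3555 CPM in the blastoid set and 4472 CPM in the blastocyst set, a ratio of 0.795 (0.707 to 0.892), while over all deep nuclei it was 13.6-fold lower in the blastoid. The 6 nuclei held 2.10% of all deep UMIs of the blastoid library but 321 of its 791 FN1 UMIs, 40.6%. That level rested on 2 nuclei: the pair from the trophectoderm-like cluster held 127 and 97 of these UMIs (5375 CPM), and the 4 nuclei of cluster 3, split off after seeing the data, were at 1995 CPM (1618 to 2434), 2.24-fold below the blastocyst set (1.83 to 2.77). The endocytic receptor LRP2 was at 199 CPM against 209 CPM (ratio 0.954, 0.551 to 1.56) and the apolipoprotein APOA1 at 321 CPM against 236 CPM (1.36, 0.887 to 2.02). The 6 nuclei held 3.64% of the deep APOA1 and 0.189% of the LRP2 UMIs of the blastoid library, so LRP2 was scarcer in them than in its other nuclei. LRP2 was scarce in the blastocyst set too, at 209 CPM against 2892 CPM in the 251 blastocyst nuclei with neither HNF4A nor GATA4.

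PDGFRA, RSPO3, GATA6, NID1, COL4A1 and COL4A2 were lower in the blastoid set. The ratio to the blastocyst set was 0.513 (0.305 to 0.814) for COL4A1 and 0.415 (0.224 to 0.708) for COL4A2. PDGFRA had 3 UMIs (33.2 CPM, 6.85 to 97.1) against 325 (417 CPM, 373 to 465), 12.5-fold lower (4.25 to 61.1). All 3 lay in the nuclei of cluster 3, where the gap was 6.76-fold (2.29 to 32.9). RSPO3 had 0 UMIs against 173 (222 CPM), at least 6.68-fold lower with 3 UMIs as the floor over the set. GATA6 was at 199 CPM (118 to 315) against 1008 CPM (939 to 1081), 5.06-fold lower (3.18 to 8.58), and NID1, which joins laminin to collagen, had 2 UMIs against 514. SOX17 had 0 UMIs against 12 (15.4 CPM), a 0 that allows up to 33.2 CPM, so no difference was detectable.

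Other hypoblast markers were higher in the blastoid set. The laminin gene LAMA1 was 9.12-fold (4.53 to 18.4) and APOE, a lipid carrier, 11.7-fold (5.57 to 25.3) as high, and FST, the activin antagonist follistatin, had 50 UMIs (554 CPM) against 1. Over all deep nuclei APOE (8.02-fold), FST (91.9-fold), CDH2 (7.34-fold) and LAMA1 (1.76-fold) were higher in the blastoid too. Within the blastoid library the 6 nuclei had FST at 554 CPM against 45.8 CPM in the 273 nuclei with neither HNF4A nor GATA4, APOE at 210 CPM against 72.6 CPM, LAMA1 at 210 CPM against 82.3 CPM and CDH2 at 1019 CPM against 615 CPM. CDH2 was a gene of blastoid cluster 3 as a whole, at 1335 CPM and in 97.1% of its thinned nuclei. The 4 nuclei of cluster 3 held 49 of the 50 FST, 17 of the 19 APOE and 81 of the 92 CDH2 UMIs. In the other 2 nuclei APOE was at 48.0 CPM (2 UMIs) and CDH2 at 264 CPM, with ratios to the blastocyst set of 2.67 (0.295 to 11.6) and 1.06 (0.521 to 1.94), so neither difference was detectable there. LAMA1 had 7 UMIs in the 4 nuclei and 12 in the other 2. The set is 6 nuclei of 1 library and has no replicate.

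**Figure D4:**
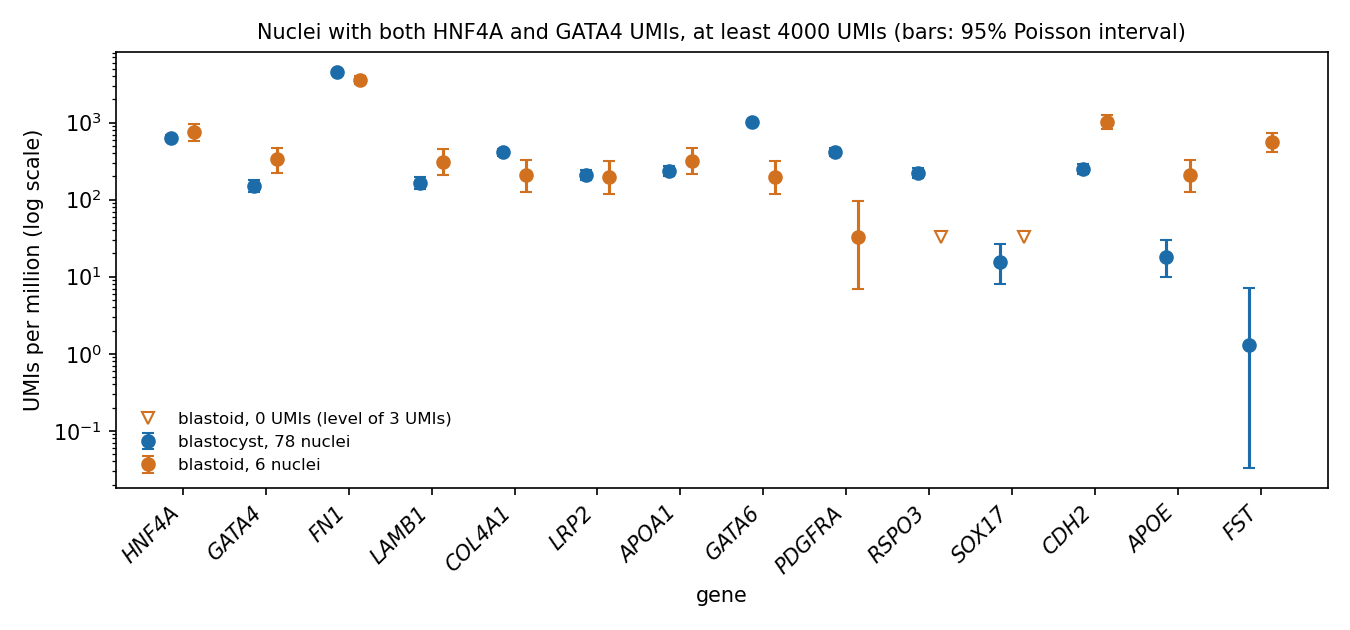
Level of 14 genes (CPM, log axis) summed over nuclei with both HNF4A and GATA4 in the blastocyst (78 nuclei, blue) and the blastoid (6 nuclei, orange), with exact Poisson 95% intervals; open triangles mark 33.2 CPM, the level of 3 UMIs, where no UMI was found. LRP2 and APOA1 lie close together and FN1 slightly apart. GATA6, PDGFRA, RSPO3 and COL4A1 lie lower in the blastoid, and LAMB1, CDH2, APOE and FST higher.

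Other blastoid nuclei had the genes in other company. One nucleus with 12341 UMIs, placed in the trophectoderm-like cluster but with no GATA2 or GATA3 UMI and 17 hypoblast against 7 trophectoderm markers detected, had 3 GATA4 UMIs and no HNF4A, with 30 APOB, 26 AFP, 25 APOA1 and 7 TTR UMIs, which are yolk sac and liver products. The 3 nuclei with most RSPO3 (13, 9 and 8 UMIs) all lay in cluster 3 and had no HNF4A, GATA4, PDGFRA or SOX17. One nucleus of cluster 3 with 28139 UMIs had 2 PDGFRA, 1 GATA4 and 3 RSPO3 UMIs beside 15 COL4A1 and 6 GATA6.

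The genes with which these regulators work were read from lists at like depth, where 15.3% of all features were at least 2-fold lower and 21.9% higher. Of the PDGF ligands and other receptors, 5 of 6 had at least 10 UMIs, 3 were at least 2-fold higher in the blastoid and 0 lower, with a median log2 difference of 1.35 against 0.04 over all features tested. PDGFC, a ligand of PDGFRA, was at 74.9 CPM in the blastoid and 5.49 CPM in the blastocyst, 13.7-fold higher (9.65 to 19.8). PDGFA, the other main ligand, was at 25.1 CPM against 13.7 CPM. In the blastocyst PDGFA and its receptor lay in different clusters, with 83 of 93 PDGFA UMIs in trophectoderm-like nuclei (36.2 CPM, 28.8 to 44.9) against 6 in the GATA6-high cluster (1.80 CPM), where PDGFRA had 1193 of its 1409. In the blastoid, PDGFC had 262 of its 345 UMIs in cluster 3, which also held most PDGFRA.

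Of the R-spondin and WNT receptor genes 11 of 14 had at least 10 UMIs, of which 4 were at least 2-fold higher in the blastoid and 0 lower (median 0.22), where 21.9% of all features were higher and 15.3% lower. The R-spondin receptor LGR4 was at 83.2 CPM against 98.3 CPM (ratio 0.847, 0.742 to 0.965), and ZNRF3, the ubiquitin ligase that R-spondins inhibit, at 314 CPM against 277 CPM (1.13, 1.05 to 1.22). LGR4 and ZNRF3 thus differed by less than 2-fold. The 4 higher genes were another R-spondin receptor, LGR6 (9 UMIs against 3), and the WNT antagonists DKK1 (27 UMIs against 2), DKK3 and SFRP1 (30 against 3). The other R-spondins had at most 8 UMIs in either library.

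In the GATA family and its cofactors 5 of 8 genes were at least 2-fold lower and 1 higher (median -1.42). GATA6, the factor that heads the hypoblast programme, was at 69.3 CPM against 779 CPM, 11.2-fold lower (10.0 to 12.7), and the GATA cofactor ZFPM2 at 49.3 CPM against 2.90 CPM was the 1 gene that was higher. GATA5, of the same subfamily as GATA4 and GATA6, had 1 UMI against 21. GATA2 (ratio 1.21, 1.11 to 1.32) and GATA3 (1.10, 0.977 to 1.25), the trophectoderm members, were the 2 between. The lower members were thus GATA6 and GATA5 together with GATA1, TRPS1 and ZFPM1. In the SOX family 10 of 14 listed relatives had at least 10 UMIs, of which 2 were lower and 3 higher (median 0.53), and SOX18, from the same subgroup as SOX17 and SOX7, had 24 UMIs against 11.

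In the hepatocyte nuclear factor network 3 of 9 genes were lower and 2 higher (median 0.44), where 15.3% and 21.9% of all features were. NR5A2, a nuclear receptor, was at 8.14 CPM against 58.5 CPM, 7.19-fold lower (5.08 to 10.5), and HNF4G had 2 UMIs against 18. RXRA, a heterodimer partner of many nuclear receptors, was 15.9-fold higher (8.78 to 31.6). FOXA1, the paralogue of FOXA2, was at 9 and 0 UMIs in blastoid and blastocyst, under the minimum of 10. In the blastocyst NR5A2, unlike HNF4A, was highest in the epiblast-like cluster, at 244 CPM against 57.9 CPM in the GATA6-high and 3.49 CPM in the trophectoderm-like cluster.

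Liver-type genes that HNF4A and FOXA2 are known to control had another distribution. Of 13 with at least 10 UMIs, 8 were at least 2-fold higher in the blastoid and 2 lower (median 3.67). AFP, APOB, TTR and SERPINA1 had 0 UMIs in all 827 kept blastocyst nuclei, including the GATA6-high cluster with its 1840 HNF4A UMIs, where a 0 allows up to 0.900 CPM. In the blastoid the ribosomal-rich cluster held 820 of 997 AFP UMIs (259 CPM), 3983 of 4784 APOA1 UMIs (1258 CPM) and 1554 of 1851 RBP4 UMIs (491 CPM), beside 3 HNF4A, 6 GATA4 and 1 FOXA2 UMIs. The 6 nuclei with HNF4A and GATA4 held 1.69% of the deep AFP and 3.64% of the deep APOA1 UMIs of the library, beside 2.10% of all its deep UMIs. AFP was at 33.2 CPM (6.85 to 97.1) in them and 34.8 CPM (29.4 to 41.0) in the 273 nuclei with neither gene, so no difference was detectable. MTTP, which loads lipid onto apolipoprotein B, went the other way, at 12.9 CPM in the blastocyst and 1.16 CPM in the blastoid. The ribosomal-rich cluster's share of ribosomal protein UMIs was 15.7%, against 2.50% and 2.59% in the other blastoid clusters, and its part in these levels was not tested.

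Basement membrane and endocytic genes stood between these groups, with 5 of 15 lower, 1 higher and 9 between (median -0.44). NID1 was 26.2-fold and FN1 13.6-fold lower in the blastoid, the type IV collagens COL4A1 and COL4A2 3.17-fold and 2.21-fold, and CUBN 2.08-fold higher (1.32 to 3.29). LRP2 and DAB2, the endocytic receptor and its adaptor, were 1.82-fold higher each. Of the 24 hypoblast markers 5 were lower, 10 higher and 9 between (median 0.84), on the other side of 0 from the median of -2.99 over the 5 regulators counted. The markers that were lower were GATA6, FN1, NID2, COL4A1 and COL4A2. The list was not particular to the GATA6-high cluster, since NID2, LRP2, DAB2 and LAMA1 were markers of the trophectoderm-like blastocyst cluster. Summed over the list, the blastoid had 5765 CPM in its trophectoderm-like cluster and 3141 CPM in cluster 3. The blastocyst had 6821 CPM in the GATA6-high and 5550 CPM in the trophectoderm-like cluster.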

How the data were processed

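Single-nucleus RNA was profiled in 1 blastoid and 1 blastocyst library (10x Genomics). The authors deposited whole-number UMI counts for each gene in each barcode. Per the file headers the software was Cell Ranger 7.2.0, while the submitters' processing notes name Cell Ranger 7.1.0 and Seurat 4.3.0. Build, annotation and cell calling are not given in the sources used here. The 7 genes and all lists were chosen with earlier results of these data known. Barcodes with at least 500 genes and under 10% mitochondrial UMIs were kept, and the highest Scrublet scores removed at 0.8% per 1000 barcodes (scanpy 1.11.5), which took out 30 blastoid and 6 blastocyst barcodes. The blastoid library held 7575395 UMIs in 1957 barcodes and the blastocyst 7029253 in 944. Clusters (leidenalg 0.10.2, resolution 0.5, 2000 variable genes without the 7 genes and list genes, 30 components, 15 neighbours) were named from at least 3 markers with 1.5 times the level of other clusters and 2 times as many as any other class, unless the 10 leading genes held more markers of another class. The 7 genes were not markers here. CPM values carry exact Poisson, shares Clopper-Pearson and ratios exact conditional 95% intervals, checked on simulated data. List genes needed 10 UMIs over both libraries, counts under 3 were set to 3 for log2 differences, and 2-fold was the limit for a call. Named genes are the 7, those of the lists, and per gene the 3 most correlated with r of at least 0.3. Of the list symbols, 4 were not matched (POU5F1, TDGF1, GSC and SOX3) and were not analysed here. Over features with at least 100 UMIs in each library, the median log2 difference was -0.02 at like depth and -0.25 over kept barcodes. Over those with 10 in all it was 0.04 at like depth.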

Additional observations from a re-analysis of the deposited data

How the results depend on the processing

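No paired analysis was possible because each group had 1 library. Of 65 levels of the genes recomputed under other depth minimums, filters and doublet settings, 62 stayed inside the interval of the reported value, and the number of genes at least 2-fold lower stayed within 1.5 times in all 13 settings. HNF4A moved to a log2 difference of -4.78 with a minimum of 2000 UMIs, and HNF4A and GATA4 to -5.90 and -2.13 without the 2 blastoid nuclei with most HNF4A, an alternative chosen after seeing the data. Detection followed the thinning: the blastocyst share with at least 2 genes was 26.7% at 2000 UMIs, 56.8% at 8000 and 19.8% when 2 UMIs were asked for, and the blastoid share was 0.102% at 2000 UMIs. In all, 30 of 80 detection shares and 31 of 65 co-detection shares moved, and all that moved at 2000 UMIs were lower. Of 71 cluster levels 14 moved: 10 with another clustering resolution, HNF4A (5.36 CPM) and GATA4 (4.28 CPM) of blastoid cluster 3 without those same 2 nuclei, and HNF4A (4.87 CPM) and PDGFRA (7.09 CPM) of the trophectoderm-like blastocyst cluster without 1 nucleus. List medians reversed for definitive endoderm markers, to 0.61 with genes of at least 1 UMI, and for endothelial markers, to -4.39 with at least 100 UMIs. When nuclei with at least 3 HNF4A UMIs stood in for those with HNF4A and GATA4, also chosen after seeing the data, PDGFRA and GATA6 stayed inside their intervals (-3.42 and -2.38) and FN1 moved from -0.33 to 0.03. With the 4 nuclei of cluster 3 alone, chosen likewise, FN1 was at -1.16, PDGFRA at -2.76 and GATA6 at -2.62. RSPO3 had 0 UMIs in either set, so no value is given.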

Other observations

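Markers of other cell types were read at like depth beside the regulators, each list given as genes at least 2-fold lower, higher and between in the blastoid, with the median log2 difference. Over all features tested 15.3% were lower and 21.9% higher. Epiblast markers had 9 lower, 3 higher and 1 between (-2.11), trophectoderm markers 1, 8 and 12 (0.85), fibroblast markers 2, 5 and 2 (1.71), definitive endoderm markers 2, 1 and 1 (-1.38), endothelial markers 4, 6 and 0 (1.47), and neural and floor plate markers 0, 4 and 2 (3.19). The median of the epiblast list lay on the same side of 0 as that of the regulators and the median of the trophectoderm list on the other. SOX5, a factor of neural and cartilage cells and of another SOX subgroup than SOX17, was at 892 CPM in deep blastoid nuclei against 18.1 CPM in the blastocyst, and SOX2 at 24.6 CPM against 26.8 CPM.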
